A study of Bos taurus with 30 samples.

Results

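The 10 genes described here carry out or control antigen presentation by major histocompatibility complex (MHC) class I molecules: NLRC5, BOLA, B2M, TAP1, TAP2, TAPBP, PSMB8, PSMB9, PSMB10 and ERAP1. They were taken by gene symbol, with earlier results of these data known, and each symbol matched exactly 1 row, so they are 10 of the 27607 genes counted. Primary endometrial cells, taken early in the luteal phase from cows that were not pregnant, were grown in a microfluidic device with epithelial cells in its upper and a stromal-enriched population in its lower chamber, a membrane between them. In the glucose experiment medium with 5 mM (the control concentration) or 50 mM glucose flowed through the devices for 72 hours. In the insulin experiment all devices received 5 mM glucose with vehicle (acidified saline), 1 ng/mL or 10 ng/mL insulin for the same time. Epithelial and stromal cells were recovered and sequenced separately, with 3 biological replicates in each of the 10 groups, which makes 30 libraries. The sources do not say whether libraries with the same replicate number came from 1 cow, so the p-values measure the spread between these cultures.

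MHC class I molecules sit on the surface of nearly all nucleated cells and show peptides from the cell's own proteins to cytotoxic T cells, while natural killer cells respond to their absence. The peptides are cut by the proteasome, whose inducible catalytic subunits form the immunoproteasome, moved into the endoplasmic reticulum by the TAP transporter, trimmed by aminopeptidases and loaded with the help of tapasin onto a class I heavy chain paired with beta 2 microglobulin. Interferons raise transcription of many of these genes, in part through NLRC5, and in the ruminant uterus class I expression on luminal epithelium is known to fall in early pregnancy.

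Total counts per library ran from 13493503 to 16647701 in the glucose experiment and from 8826470 to 13214728 in the insulin experiment. Levels are given as CPM, which scales each library's counts by its total, without correction for gene length, so they are compared between libraries and not between genes. The labels were checked against marker genes. All 20 epithelial markers tested higher in epithelial than in stromal cells under vehicle, and all 21 rows of stromal markers tested lower (edgeR quasi-likelihood test, adjusted p under 0.05). Under vehicle 3, 20 and 1 of the 20 epithelial markers reached 1 CPM in stromal replicates 1, 2 and 3. Most of the 20 thus passed the low-count filter through the epithelial libraries, which set the direction of their calls in advance. In the glucose experiment 18 of the 20 epithelial markers tested higher at 5 mM and 1 at 50 mM, and all 21 stromal rows tested lower at both. Of 6 endothelial markers 5 matched a row, and their summed level ran from 16.2 to 77.1 CPM over the epithelial libraries, against 2.66 to 21.5 CPM over the stromal ones. VWF made up most of it in epithelial libraries, at 15.4 to 76.1 CPM, while PECAM1 reached at most 2.83 CPM and CDH5 at most 0.188 CPM there. The part of endothelial cells in the results was not tested. Of 12 leukocyte markers 6 names matched a row. LCP1 stood at 152 to 425 CPM in epithelial libraries, where CD14 reached at most 8.15 CPM, CD68 at most 4.28 CPM, AIF1 at most 2.58 CPM, CSF1R at most 0.333 CPM and CD8A at most 0.140 CPM. The libraries described next touch several results, and many values, though not all, that moved by over 1.5 times without them are also given without them. Replicate 2 of the epithelial 5 mM group stood apart, with 3309 of 8885 expressed genes more than 2-fold from the mean of the other replicates, against 77 to 1333 genes in the other 29 libraries. Several stromal libraries carried epithelial transcripts. At 5 mM glucose the summed level of the 20 epithelial markers was 670, 328 and 78.5 CPM in stromal replicates 1, 2 and 3. At 50 mM it was 1524, 1054 and 6088 CPM, against 9079 to 16758 CPM in epithelial libraries. At 5 mM 20, 5 and 4 of the markers reached 1 CPM in replicates 1, 2 and 3, and 9 had no read in replicate 2. The sums of replicates 2 and 3 there thus rest on few markers. At 50 mM all 20 reached 1 CPM in each stromal library. In the insulin experiment the summed level was 366 CPM in stromal vehicle replicate 2 and 340 CPM in stromal 10 ng/mL replicate 1. It was at most 33.8 CPM in the other stromal libraries.

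Epithelial cells carried more transcript of 9 of the 10 genes than stromal cells in the insulin experiment, under vehicle and at both insulin doses. The median difference over the 10 genes was 2.31 on the log2 scale under vehicle, 2.46 at 1 ng/mL and 2.33 at 10 ng/mL, while the median over all genes tested was 0.00, -0.00 and -0.01. PSMB10 was the exception. Under vehicle 9 genes were called higher at an adjusted p under 0.05 and a log2 fold change beyond 0.1, where 27.8% of 13395 genes were called higher and 55.2% were called in either direction. At 1 ng/mL 9 genes were called, beside 29.6% of all genes called higher and 58.9% in either direction. At 10 ng/mL 9 genes were called, beside 27.1% and 54.4%. Within stromal cells PSMB9 failed the low-count filter in every insulin comparison, and PSMB8 in that of 1 ng/mL with vehicle. PSMB9 thus entered each of these counts, and PSMB8 those of vehicle and 1 ng/mL, through the epithelial libraries. This set the direction of those calls in advance. In the glucose experiment 5 genes were called higher in epithelial cells at 5 mM, beside 10.5% of 13927 genes (21.1% in either direction), and the same 5 at 50 mM, beside 6.39% of 13892 genes (17.3% in either direction): NLRC5, BOLA, TAP1, PSMB8 and PSMB9. The other 5 were above 0 in both fits without being called. None was called lower in any of the 5 comparisons. In whole cultures fewer cells of a type and less RNA per cell cannot be told apart.

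**Figure D1:**
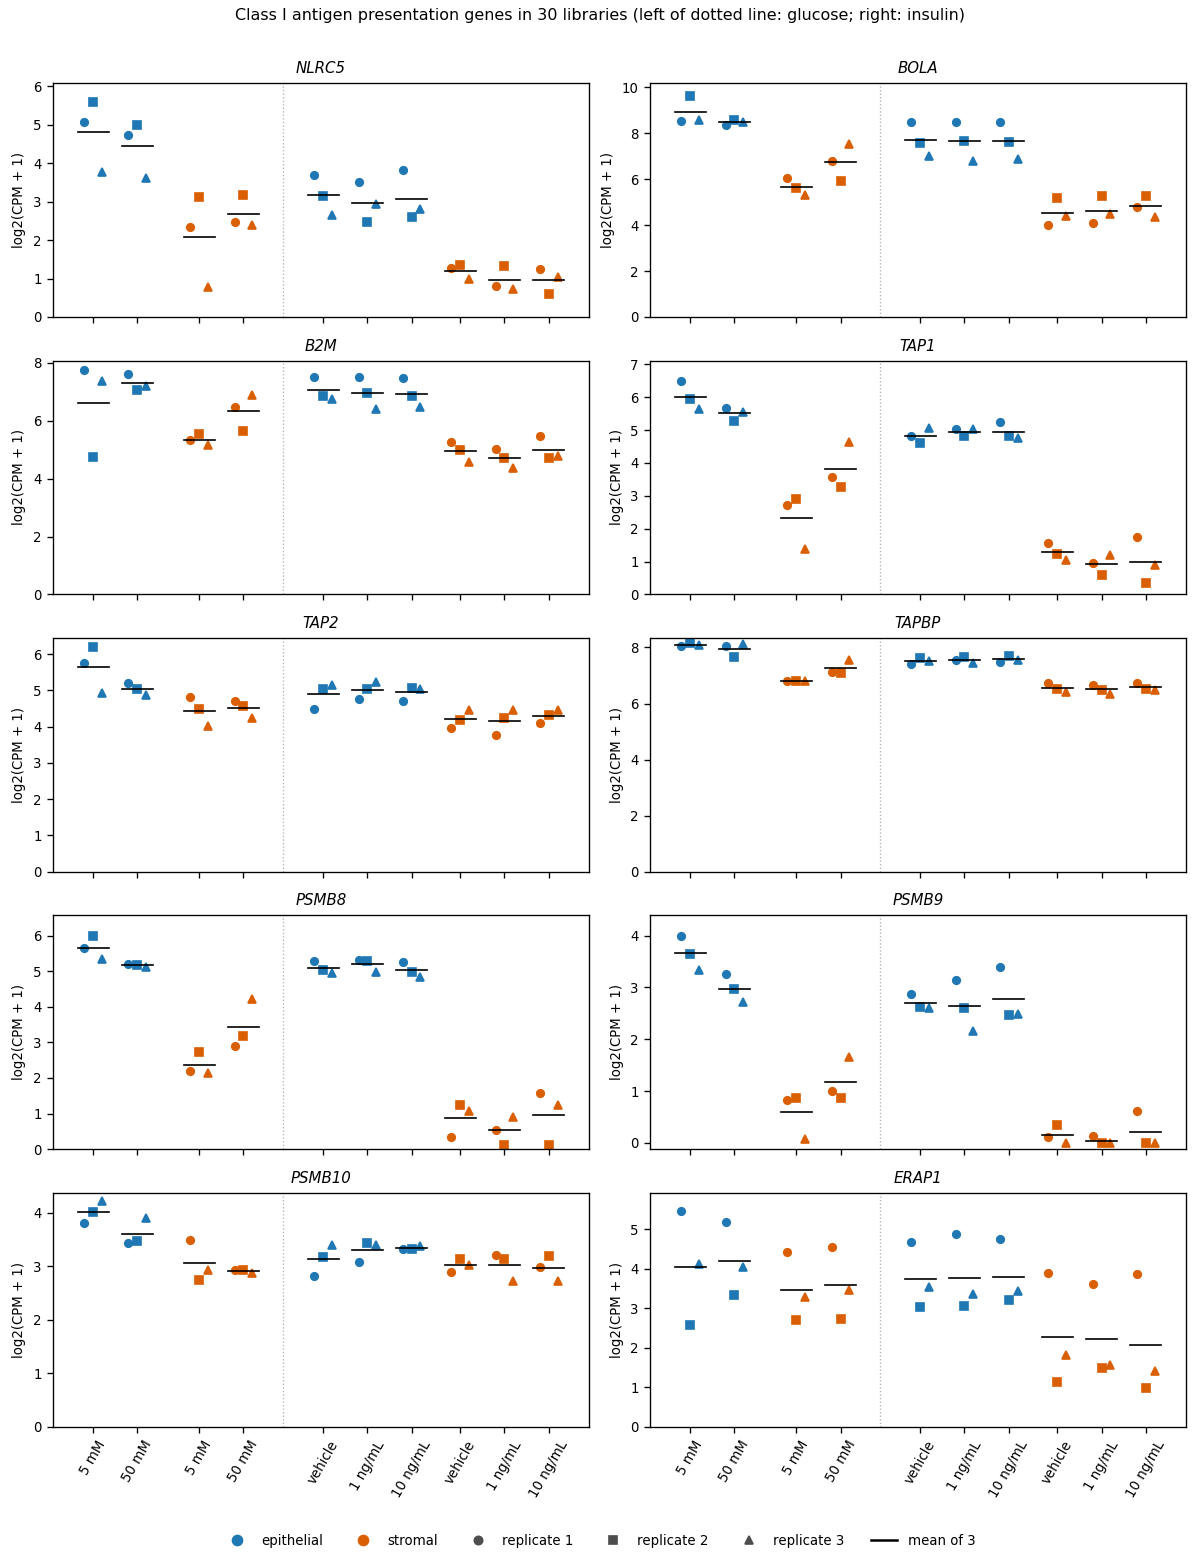
Level of each of the 10 genes in every library, as log2(CPM + 1), by treatment, with epithelial libraries in blue, stromal libraries in orange, replicate number as marker shape and a bar at the mean of 3. Epithelial and stromal libraries separate for NLRC5, BOLA, TAP1, TAP2, TAPBP, PSMB8 and PSMB9 in both experiments. They separate for B2M with insulin only, and for PSMB10 and ERAP1 they overlap in both experiments. The share of all genes that separate was not counted.

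NLRC5 (ENSBTAG00000005413), the transcriptional activator of class I genes, was measured at 32.9, 47.0 and 12.7 CPM in epithelial replicates 1, 2 and 3 at 5 mM glucose and at 4.11, 7.73 and 0.732 CPM in the matching stromal libraries. In the vehicle group it was 11.8, 7.85 and 5.35 CPM in epithelial and 1.40, 1.54 and 0.975 CPM in stromal cells. The lowest epithelial library stood above the highest stromal library in each experiment. The fitted difference was 7.82-fold at 5 mM (log2 2.97 ± 0.43 SE, adjusted p = 0.00834) and 2.57 ± 0.29 on the log2 scale under vehicle (adjusted p = 0.00277). At 50 mM it was 1.80 ± 0.24 (adjusted p = 0.00995).

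BOLA (ENSBTAG00000002069) is the row that holds a class I heavy chain, the polymorphic part that binds the peptide. Cattle carry several near-identical class I genes and only uniquely mapped reads were counted, so reads of this row may be short of, or shared with, those of its relatives. At 5 mM glucose it was 369, 778 and 372 CPM in epithelial and 65.7, 47.9 and 38.9 CPM in stromal cells. Under vehicle it was 353, 188 and 128 CPM in epithelial and 14.9, 34.7 and 19.9 CPM in stromal cells. Every epithelial library lay above every stromal library of the same experiment, with the closest approach at 50 mM glucose, where stromal replicate 3 reached 181 CPM. The difference was 8.21-fold at 5 mM (log2 3.04 ± 0.46, adjusted p = 0.00897), 2.99-fold at 50 mM (adjusted p = 0.0406) and 3.12 ± 0.54 on the log2 scale under vehicle (adjusted p = 0.00834).

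B2M (ENSBTAG00000012330), the invariant light chain shared by class I and class I-like molecules, was 181, 115 and 108 CPM in epithelial and 37.3, 31.1 and 23.1 CPM in stromal vehicle libraries, without overlap. The epithelial excess was 2.05 ± 0.14 on the log2 scale (adjusted p = 0.00112). In the epithelial 5 mM group B2M was 213, 25.9 and 166 CPM, so replicate 2 was below all 3 stromal libraries of that dose (39.0, 45.3 and 34.8 CPM). In the same library BOLA had its highest level of all 30 libraries. Only 89 of the 8885 expressed genes lay further below the mean of the other replicates than B2M in that library. The cell type difference at 5 mM was 1.16 ± 0.71 (adjusted p = 0.323) with replicate 2, and 2.10 (adjusted p = 0.0135) without it.

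TAP1 (ENSBTAG00000008953) encodes a subunit of the peptide transporter. It was 89.2, 60.1 and 48.4 CPM in epithelial and 5.54, 6.48 and 1.59 CPM in stromal cells at 5 mM, and 27.0, 23.5 and 32.4 CPM in epithelial and 1.92, 1.36 and 1.08 CPM in stromal cells under vehicle. The ranges did not overlap in either experiment. The difference was 14.0-fold at 5 mM (adjusted p = 0.00558), 3.04-fold at 50 mM (adjusted p = 0.0222) and 4.14 ± 0.22 on the log2 scale under vehicle (adjusted p = 0.000914). TAP2 (ENSBTAG00000003038), which encodes its partner subunit, differed far less: it was 21.4, 31.6 and 34.7 CPM in epithelial and 14.7, 17.1 and 20.9 CPM in stromal vehicle libraries. The TAP2 difference was 0.64 ± 0.11 on the log2 scale under vehicle (adjusted p = 0.00878) and 1.01 ± 0.35 at 5 mM glucose (adjusted p = 0.102). TAPBP (ENSBTAG00000016828) encodes tapasin, which holds the class I molecule at the transporter. At 5 mM glucose it was 261, 284 and 271 CPM in epithelial and 110, 111 and 111 CPM in stromal cells, with little spread in either. Its difference under vehicle was 0.89 ± 0.11 (adjusted p = 0.00328).

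The immunoproteasome subunits split. PSMB8 (ENSBTAG00000003039) was 49.7, 62.2 and 39.8 CPM in epithelial and 3.58, 5.66 and 3.42 CPM in stromal cells at 5 mM glucose, a 10.4-fold difference (log2 3.38 ± 0.34, adjusted p = 0.00543). In the insulin experiment it lay between 27.6 and 38.6 CPM in the 9 epithelial libraries and between 0.0848 and 1.97 CPM in the 9 stromal libraries. PSMB9 (ENSBTAG00000008954) was 14.9, 11.5 and 9.11 CPM in epithelial and 0.782, 0.817 and 0.0610 CPM in stromal cells at 5 mM, which gave a log2 difference of 4.43 ± 0.69 (adjusted p = 0.00975). Both genes were near the detection limit in stromal cells of the insulin experiment, so summed counts are given there with exact 95% Poisson ratio intervals, which cover counting error only. PSMB9 had 185 epithelial and 4 stromal counts under vehicle, a ratio of 44.3 (17.0 to 164), and 169 and 7 counts at 10 ng/mL, a ratio of 30.9 (14.7 to 78.1). At 1 ng/mL there was 1 stromal count against 172 epithelial counts, a ratio of 191 (33.8 to 7587). For PSMB8 the ratio of summed counts was 38.2 (26.3 to 57.8) under vehicle, 73.5 (45.7 to 127) at 1 ng/mL and 27.2 (19.9 to 38.2) at 10 ng/mL. Stromal replicate 1 at 10 ng/mL held all 7 counts of PSMB9 and 26 of the 41 of PSMB8. Stromal vehicle replicate 2 held 3 of the 4 counts of PSMB9 and 15 of the 28 of PSMB8. Both libraries carried epithelial transcript, and the ratios were not computed without them. PSMB10 (ENSBTAG00000018040) was 6.04, 8.06 and 9.57 CPM in epithelial and 6.38, 7.79 and 7.15 CPM in stromal vehicle libraries, which overlap, with a difference of 0.05 ± 0.17 (adjusted p = 0.816). At 5 mM glucose it was 0.84 ± 0.42 (adjusted p = 0.230).

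ERAP1 (ENSBTAG00000013557), the aminopeptidase that trims peptides in the endoplasmic reticulum, was 24.7, 7.23 and 10.5 CPM in epithelial and 13.7, 1.18 and 2.49 CPM in stromal vehicle libraries. The cell types overlapped, yet in each of the 3 pairs the epithelial library was higher. The difference was 1.61 ± 0.34 on the log2 scale under vehicle (adjusted p = 0.0160) and 0.41 ± 0.38 at 5 mM glucose (adjusted p = 0.510). At 5 mM it ranged from 0.19 to 0.75 when single replicates were left out.

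**Figure D2:**
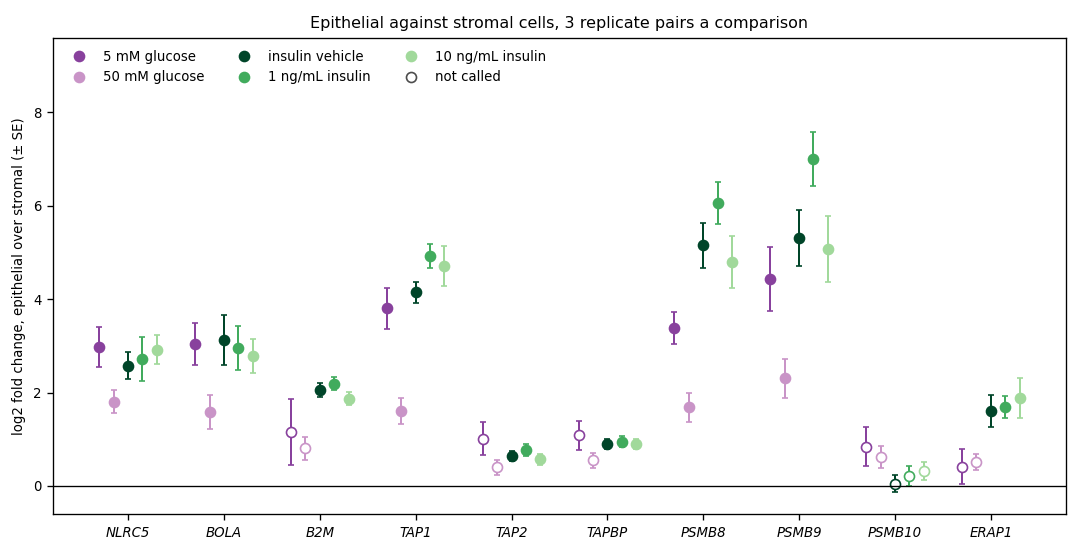
Log2 fold change of epithelial over stromal cells for each gene, with SE, in the 5 treatment contexts (3 replicate pairs each). Filled points were called at an adjusted p under 0.05, open points were not, and the PSMB9 point at 1 ng/mL insulin rests on 1 stromal count.

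The counts at 5 mM and 50 mM glucose moved with single replicates. At 5 mM, leaving out replicate 2 raised the count from 5 to 7, with B2M and TAPBP added, while 3362 of 14165 genes were called in all. At 50 mM the count was 3 without the replicate number in the model (1088 of 13892 genes called in all) and 6 without replicate 3 (3897 of 14010). It was 0 without replicate 1, where no gene of the 14019 tested was called while 2525 had an unadjusted p under 0.05. Without replicate 1 the log2 differences at 50 mM were still 1.74 for BOLA, 1.44 for TAP1, 1.43 for PSMB8, 2.06 for PSMB9 and 1.58 for NLRC5. DESeq2 called 6 genes at 5 mM, where it called 3864 of 13927 genes in all, and 6 at 50 mM, where it called 3529 of 13892. In the insulin experiment the count under vehicle was 9 without replicate 2, and at 10 ng/mL it was 8 without replicate 1, the replicates whose stromal libraries carried epithelial transcript. The 5 genes called at 50 mM had smaller fitted differences there than at 5 mM, a change that was not called for any of them, and the stromal libraries at 50 mM are those with the most epithelial transcript; the part of that transcript in the smaller difference was not tested.

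Genes that act beside the 10 were counted from lists of the same pathway. Under vehicle 55.2% of all genes tested were called in either direction, and the counts of the loading, proteasome, class I-like, transcription factor and receptor lists lay near that share, so they are no result about those lists. Among 6 loading and trimming genes, 4 were called higher and none lower in epithelial cells under vehicle (median 0.51 on the log2 scale), led by ERAP2, a second trimming aminopeptidase and the neighbour of ERAP1 in the RefSeq gene order, at 2.83 ± 0.14 (adjusted p = 0.000904), and PDIA3, a disulfide isomerase of the loading complex, at 0.65 ± 0.12 (adjusted p = 0.0101). Among 8 constitutive proteasome and activator genes, 2 were called higher and 3 lower. The 2 were PSME1 (1.82 ± 0.14, adjusted p = 0.00132) and PSME2 (1.31 ± 0.12, adjusted p = 0.00174), which encode the interferon-inducible PA28 activator. The constitutive subunits that PSMB8, PSMB9 and PSMB10 replace were chosen for naming after their values were seen. PSMB5 differed by -0.01 ± 0.12 (adjusted p = 0.955). PSMB6 (-0.42 ± 0.09, adjusted p = 0.0147) and PSMB7 (-0.48 ± 0.09, adjusted p = 0.0109) were called lower in epithelial cells.

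Among 6 class I-like genes and other partners of B2M, 2 were called higher and 1 lower under vehicle. BOLA-NC1, a nonclassical class I gene, was higher in epithelial cells by 2.33 ± 0.17 (adjusted p = 0.00127), and CD1D, which presents lipids, was lower by 4.24 on the log2 scale (-4.24 ± 0.45, adjusted p = 0.00246). Among 14 rows of transcription factors 6 were called higher and 1 lower. IRF1, an interferon-induced activator of class I genes, stood at 3.15 ± 0.36 (adjusted p = 0.00282) and NFKB1, a subunit of NF-kappaB, at 0.85 ± 0.10 (adjusted p = 0.00302). IRF1 did not differ in the same way in the glucose experiment, with 0.47 ± 0.37 at 5 mM (adjusted p = 0.434) and -0.27 ± 0.26 at 50 mM (adjusted p = 0.509), and none of the 14 rows was called there by edgeR, with 1 at an unadjusted p under 0.05 at 5 mM and 3 at 50 mM. Whether the cell type difference of IRF1 itself differed between the experiments was not tested. Of 8 interferon receptor and kinase genes tested, 4 were called higher and 1 lower, with PTPN2, a phosphatase of the pathway, at 0.86 ± 0.09 (adjusted p = 0.00255) and IFNGR2, a chain of the interferon gamma receptor, at -0.86 ± 0.10 (adjusted p = 0.00277).

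The share of all genes called in either direction was lower in the glucose experiment than under vehicle, at 21.1% at 5 mM and 17.3% at 50 mM. Lower counts of the lists there are therefore no result about the lists. At 5 mM glucose 0 of 6 loading genes were called by edgeR (1 at an unadjusted p under 0.05), 2 of 8 proteasome genes were called higher and 1 lower, and 1 of 9 interferon receptor genes was called lower. At 50 mM 1 loading gene was called higher and 1 proteasome gene lower. At 10 ng/mL insulin 2 loading genes were called higher, 2 proteasome genes higher and 3 lower, and 6 transcription factors higher and 1 lower. At 1 ng/mL 3 loading genes were called higher, 2 proteasome genes higher and 3 lower, and 5 transcription factors higher and 3 lower. Beside these counts stood 54.4% of all genes at 10 ng/mL and 58.9% at 1 ng/mL, in either direction.

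The genes of class II presentation, which serves peptides from outside the cell, went the same way as class I. Of 10 rows, 6 passed the low-count filter under vehicle and all of these were called higher in epithelial cells, beside 27.8% of 13395 genes. In the comparisons within stromal cells of the insulin experiment 0 class II rows passed that filter. The 6 therefore passed it through the epithelial libraries, which set the direction of their calls in advance. CD74, the invariant chain, was higher by 6.72 ± 0.63 (adjusted p = 0.00188) and BOLA-DRA by 5.53 ± 0.56 (adjusted p = 0.00220). CIITA, the class II activator, named after its values were seen, stood at 2.56 to 7.13 CPM in the 9 epithelial libraries and at 0 counts in 8 of the 9 stromal libraries of the insulin experiment. Class II is also a property of macrophages and dendritic cells. The summed level of the 6 matched leukocyte markers was 230 to 428 CPM in those epithelial libraries, mostly LCP1. Macrophage markers were read there at low levels, with CD14 at 1.39 to 4.41 CPM and CD68 at 0.780 to 2.04 CPM in all 9 libraries, AIF1 at 0.298 to 2.58 CPM and CSF1R at 0 to 0.315 CPM, and the part of such cells in the class II values was not tested.

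At 50 mM compared with 5 mM glucose, none of the 10 genes was called in epithelial cells or in stromal cells, and the values leaned in opposite directions. In epithelial cells 8 of the 10 differences were below 0 (median -0.43 on the log2 scale, against 0.01 over all genes tested), and in stromal cells 9 of the 10 were above 0 (median 0.83, against -0.03). The epithelial median was -0.27 without replicate 2, and the stromal median was 0.22 without replicate 3 and 1.34 without replicate 2. With edgeR 0 genes were called in epithelial cells, beside 0% of 13713 genes, and 1 had an unadjusted p under 0.05. In stromal cells 0 were called, beside 0% of 13644 genes, and 3 had an unadjusted p under 0.05. DESeq2 called 0 of the 10 in both cell types, where it called 0 of 13713 genes in epithelial and 178 of 13644 in stromal cells.

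In epithelial cells PSMB9 went from 14.9, 11.5 and 9.11 CPM at 5 mM to 8.56, 6.79 and 5.55 CPM at 50 mM in replicates 1, 2 and 3. In CPM every library at 50 mM was below every library at 5 mM, with 8.56 and 9.11 CPM the closest values. The TMM normalization factors of these libraries were 1.03 and 1.16, and after division by them their order turned. The 3 pairs differed by similar amounts (-0.73, -0.68 and -0.63 in log2(CPM + 1)). The fitted difference was -0.75 ± 0.25 (adjusted p = 0.804 by edgeR). Without replicate 2, the pair that holds the library that stood apart, it was -0.72 with an adjusted p of 0.0338, and PSMB9 was then 1 of 221 genes called among 13906. PSMB8, TAP1, TAP2, PSMB10, BOLA and NLRC5 were also lower at 50 mM in all 3 pairs, by 0.38 to 0.60 on the log2 scale, with adjusted p-values of 0.804. Without replicate 2 these differences were smaller, at -0.090 for BOLA, -0.30 for TAP2, -0.32 for PSMB8, -0.24 for NLRC5, -0.34 for PSMB10 and -0.43 for TAP1. B2M had the highest value, 0.63 ± 0.54: replicate 2 went from 25.9 to 132 CPM, and replicates 1 and 3 from 213 to 197 and from 166 to 145 CPM. Without replicate 2 the B2M difference was -0.12.

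In stromal cells replicate 3 moved most. TAP1 went from 5.54, 6.48 and 1.59 CPM at 5 mM to 10.9, 8.60 and 24.1 CPM at 50 mM. BOLA went from 65.7, 47.9 and 38.9 CPM to 109, 59.7 and 181 CPM, and PSMB8 from 3.58, 5.66 and 3.42 CPM to 6.45, 8.05 and 17.7 CPM. All 3 pairs were higher at 50 mM for each of these genes, and in each the third pair had the largest step. The fitted differences were 1.59 ± 0.77 for TAP1 (adjusted p = 0.696), 1.01 ± 0.40 for BOLA (adjusted p = 0.696) and 1.17 ± 0.42 for PSMB8 (adjusted p = 0.696). B2M stood at 0.96 ± 0.35, PSMB9 at 1.21 ± 0.96 (12, 13 and 1 counts at 5 mM and 16, 12 and 31 at 50 mM), NLRC5 at 0.70 ± 0.55 and TAPBP at 0.39 ± 0.13, none of them called. TAP2, PSMB10 and ERAP1 lay between -0.23 and 0.06. Without replicate 3 the differences were 0.66 for TAP1, 0.50 for BOLA, 0.63 for PSMB8, 0.62 for B2M, 0.16 for PSMB9 and 0.048 for NLRC5. Without replicate 2 they were larger for B2M (1.45), PSMB9 (2.05) and NLRC5 (1.23).

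**Figure D3:**
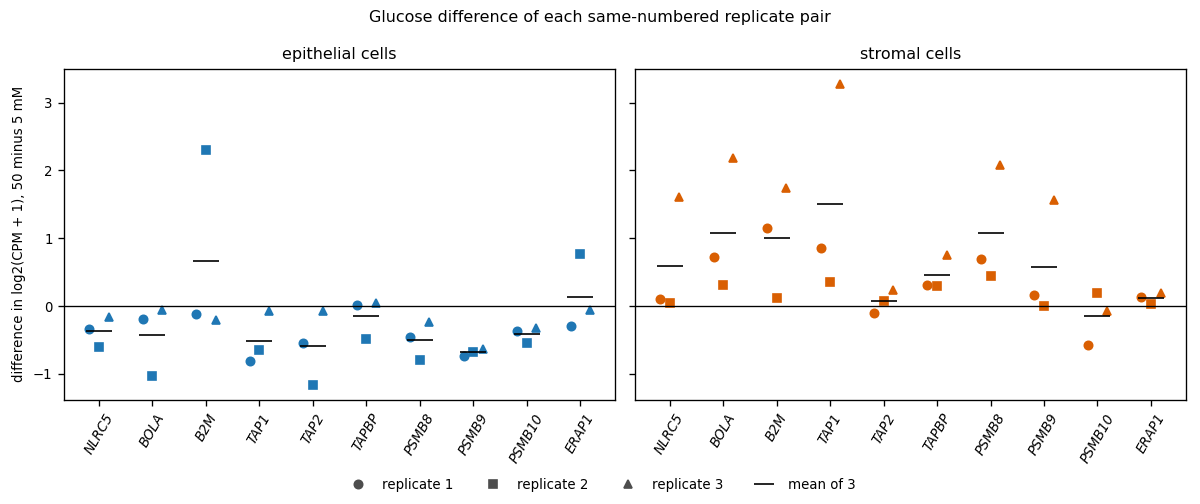
Difference of each gene between 50 and 5 mM glucose in log2(CPM + 1), for each same-numbered replicate pair, in epithelial (left) and stromal cells (right), with a bar at the mean of 3. PSMB9 in epithelial cells has 3 pairs between -0.73 and -0.63, B2M has 1 pair at 2.30, and the third stromal pair reaches 3.28 for TAP1.

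The epithelial markers moved with these stromal values. All 20 were above 0 at 50 mM in stromal cells, with a median difference of 4.75 on the log2 scale, and 0 of them were called (3 had an unadjusted p under 0.05), while all 21 rows of stromal markers were below 0 (median -0.54). The summed level of the epithelial markers was higher in each pair, from 670 to 1524, from 328 to 1054 and from 78.5 to 6088 CPM. The third pair was again the widest. The sums of 328 and 78.5 CPM rest on few markers, as 5 and 4 of the 20 reached 1 CPM in those libraries. Within the 15 stromal libraries PSMB9 had 2.14 CPM in the library with the highest sum. It was at 0 counts in 5 of the 7 libraries whose sum was at most 33.8 CPM. All 7 came from the insulin experiment, where stromal libraries had 9229446 to 13214728 counts, against 14484828 to 16392267 with glucose. PSMB9 thus cannot separate marker sum from experiment here. NLRC5 was highest, at 7.98 CPM, in replicate 2 at 50 mM, against 4.28 CPM in the library with the highest sum. BOLA was highest in that library (181 CPM), but within the insulin experiment in replicate 2 at 10 ng/mL (37.5 CPM), among the 7. TAP2 and PSMB10 stayed within 12.5 to 27.2 CPM and 5.57 to 10.2 CPM over the 15 libraries. The part of epithelial transcript in the stromal values was not tested.

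**Figure D4:**
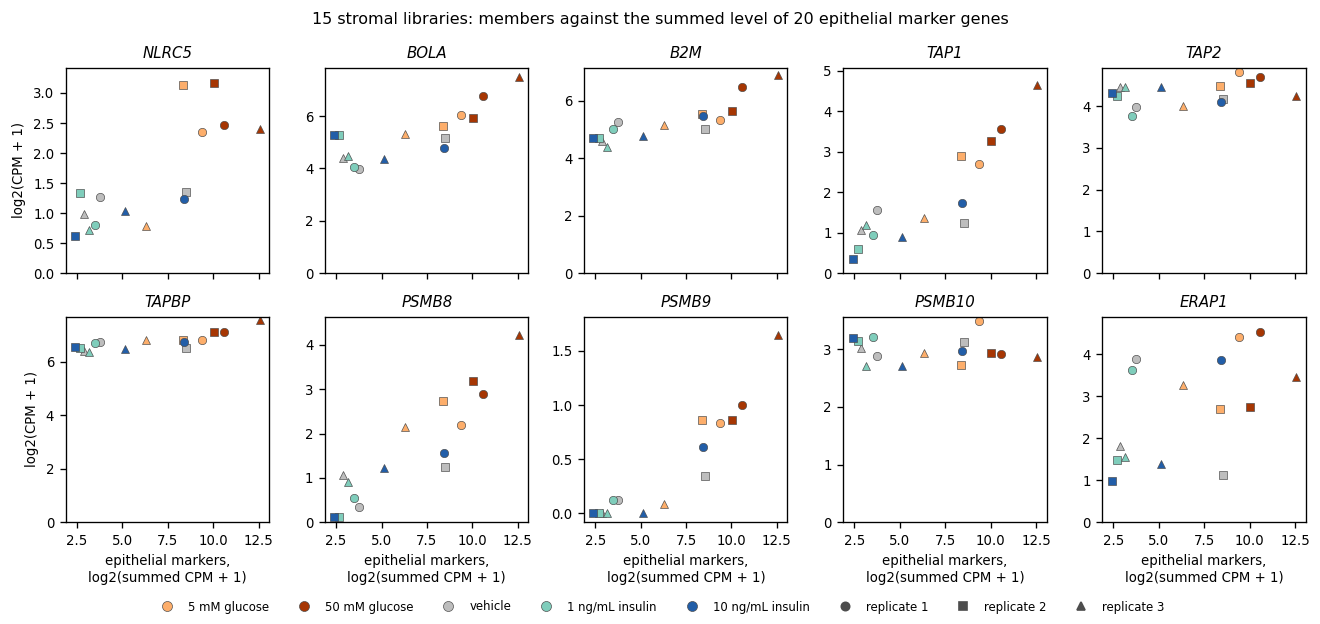
Level of each gene as log2(CPM + 1) in the 15 stromal libraries against the summed level of 20 epithelial markers, as log2(summed CPM + 1), with treatment as colour and replicate number as marker shape. TAP1, PSMB8 and PSMB9 are highest in the 50 mM library with the highest marker sum (6088 CPM), and TAP2 and PSMB10 show no such order. The sums of replicates 2 and 3 at 5 mM glucose (328 and 78.5 CPM) rest on few markers.

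The difference between the cell types in the glucose effect was tested in 1 fit over all 12 libraries. It was below 0 for 9 of the 10 genes (median -0.84), and edgeR called 0 of the 10, beside 0% of 14640 genes, with 3 at an unadjusted p under 0.05. DESeq2 called 0 of the 10 and 250 of 14640 genes in all. The median was -1.43 without replicate 2. PSMB8 had a difference of -1.68 ± 0.47 (adjusted p = 0.631), BOLA of -1.44 ± 0.53 (adjusted p = 0.640) and TAP1 of -2.11 ± 0.80 (adjusted p = 0.641).

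Insulin left the 10 genes near their vehicle levels in epithelial cells. BOLA was 353, 188 and 128 CPM under vehicle, 358, 203 and 110 CPM at 1 ng/mL and 359, 192 and 116 CPM at 10 ng/mL, so each replicate kept its own level. TAP1 lay between 23.5 and 36.9 CPM over the 9 libraries, PSMB8 between 27.6 and 38.6 CPM and NLRC5 between 4.57 and 13.3 CPM. Differences from vehicle ran from -0.22 to 0.18 on the log2 scale at 1 ng/mL and from -0.12 to 0.22 at 10 ng/mL, and from -0.16 to 0.17 between the doses. By edgeR 0 of the 10 were called at 1 ng/mL (beside 0% of 12966 genes; 0 at an unadjusted p under 0.05), 0 at 10 ng/mL (beside 0.124% of 12853; 1 at an unadjusted p under 0.05) and 0 between the doses (beside 0% of 12873; 0 at an unadjusted p under 0.05). DESeq2 called 0 in each. The gene below 0.05 was B2M at 10 ng/mL, which was 175, 114 and 88.4 CPM against 181, 115 and 108 CPM under vehicle, lower in all 3 pairs, by 0.12 on the log2 scale (-0.12 ± 0.05, adjusted p = 0.647).

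In stromal cells fewer of the genes could be tested, because PSMB9 failed the low-count filter in all 3 comparisons and PSMB8 in that of 1 ng/mL with vehicle. By edgeR 0 of 8 were called at 1 ng/mL (beside 0.0157% of 12711 genes; 1 at an unadjusted p under 0.05), 0 of 9 at 10 ng/mL (beside 0% of 12779; 0 at an unadjusted p under 0.05) and 0 of 9 between the doses (beside 0.0313% of 12772; 2 at an unadjusted p under 0.05), and DESeq2 called 0. B2M was 37.3, 31.1 and 23.1 CPM under vehicle, 31.4, 25.4 and 19.8 CPM at 1 ng/mL and 43.8, 25.2 and 26.3 CPM at 10 ng/mL. All 3 replicates were lower at 1 ng/mL than under vehicle, although the groups overlapped. The difference was -0.23 ± 0.08 (adjusted p = 0.883), and from 1 to 10 ng/mL it was 0.28 ± 0.09 (adjusted p = 1.000). PSMB8 had 5, 1 and 11 counts at 1 ng/mL and 26, 1 and 14 counts at 10 ng/mL, a difference of 1.17 ± 0.46 (adjusted p = 1.000), and of 0.55 without replicate 1. The highest of these, 26 counts, came from replicate 1 at 10 ng/mL, where the epithelial marker sum was 340 CPM, against 10.4 CPM in replicate 1 at 1 ng/mL; the part of that transcript in the PSMB8 count was not tested.

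The difference between cell types in the insulin effect was also not called for any of the 10 genes: 0 at 1 ng/mL against vehicle (beside 0.658% of 13976 genes; 1 at an unadjusted p under 0.05), 0 at 10 ng/mL against vehicle (beside 0% of 13904; 0 at an unadjusted p under 0.05) and 0 between the doses (beside 0.754% of 13924; 2 at an unadjusted p under 0.05), and DESeq2 called 0 in each. The lowest p was that of PSMB8 between the doses, -1.35 ± 0.39 (adjusted p = 0.236). Without the low-count filter it was called, at -1.37 (adjusted p = 0.0396), and without replicate 1 it was -0.81. Of the pathway lists only CD74 was called, with a difference of 4.19 ± 0.65 at 1 ng/mL against vehicle (adjusted p = 0.00334). In that comparison 18 of the 20 epithelial markers were called in the same direction, and stromal vehicle replicate 2 held the marker sum of 366 CPM. CD74 entered it through the epithelial libraries, as 0 class II rows passed the low-count filter within stromal cells. Over the 9 stromal insulin libraries CD74 had a median of 0.0807 CPM, with 0 counts in 4 of them and at most 39 counts. The stromal side of the CD74 difference thus lay near the detection limit. The part of stromal vehicle replicate 2 in the CD74 value was not tested.

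Replicate number accounted for more of the spread than insulin did. In each cell type and experiment the sum of squares of log2(CPM + 1) was divided between replicate number, treatment and the rest, as a description. In the insulin experiment the median share of replicate number over the 10 genes was 81.0% in epithelial and 66.4% in stromal cells, and that of treatment 3.51% and 9.05%. In the glucose experiment replicate number took 42.6% in epithelial and 16.1% in stromal cells, and treatment 31.7% and 46.6%. With glucose, replicate number had more levels than treatment, which raises its share even without an effect. These shares were not computed over all genes, so they are not particular to the 10. Over 12976 genes same-numbered epithelial insulin libraries deviated together, with r from 0.780 to 0.855.

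ERAP1 was the clearest case. Its share for replicate number was between 94.3% and 99.2% in the 4 sets, and replicate 1 was highest in all 5 epithelial and all 5 stromal groups. At 5 mM glucose it was 43.4, 4.97 and 16.3 CPM in epithelial and 20.3, 5.53 and 8.66 CPM in stromal cells. BOLA in epithelial cells of the insulin experiment had 99.2% of its spread in replicate number, B2M 94.7% and TAP2 87.1%. TAP2 ran the opposite way to BOLA and B2M there: replicate 1 had the lowest TAP2 level at every dose (21.4, 25.9 and 25.3 CPM) and the highest level of BOLA and B2M.

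**Figure D5:**
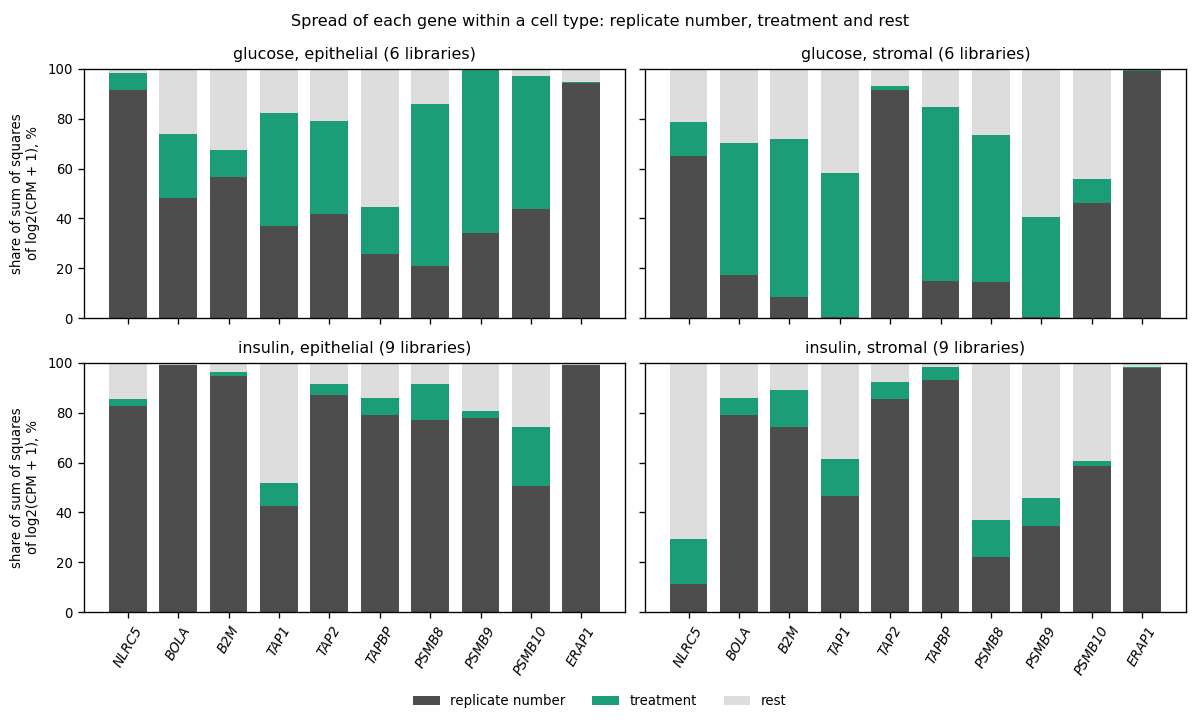
Share of the sum of squares of log2(CPM + 1) of each gene that lies between replicate numbers, between treatments and in the rest, for each experiment and cell type, in percent. ERAP1 lies at 94.3% to 99.2% for replicate number in all 4 panels, while TAP1 in glucose-treated stromal cells lies at 0.293%.

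After the mean of each cell type and experiment was removed, the genes varied together in part. Over 30 libraries Pearson's r was 0.76 between TAP1 and PSMB8, 0.76 between TAP1 and PSMB9 and 0.67 between PSMB8 and PSMB9, and these 3 genes follow each other directly in the RefSeq gene order (PSMB8, TAP1, PSMB9). The lowest was -0.57, between B2M and TAP2. Among 12515 other protein-coding genes that reached 1 CPM in 15 or more libraries, those most like the mean of the 10 genes were TBC1D8 (r = 0.90), PAX8 (0.84), BMP7 (0.83), STAT2 (0.82) and FAM84B (0.82). Libraries that hold epithelial transcript, and replicates of shared number, enter all of these values, so they describe these 30 libraries only.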

How the data were processed

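RNA from 30 libraries was sequenced as 75 bp single-end reads from a stranded kit. The authors trimmed reads with Cutadapt, mapped them by Rsubread against the Ensembl release 96 cow genome, kept unique alignments and deposited raw gene counts from featureCounts; the strand setting is not given in the sources used here. Gene symbols came from the authors' result tables, whose fold changes, p-values and normalised values were not used.

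Counts were tested in edgeR 4.0.16 (R 4.3.3): filterByExpr, TMM, quasi-likelihood F test, replicate number as a block because the study used a paired design, and Benjamini-Hochberg adjustment over all genes tested. Each comparison used its own 6 libraries, and tests of a difference between cell types used 12. Genes were called at adjusted p under 0.05 and a log2 fold change beyond 0.1. Errors are SE from the fit. CPM used library totals, and log2(CPM + 1) served for pair differences, spread and correlations. DESeq2 1.42.0 and the other alternatives are in the closing section, and the scripts were tested on simulated counts. Same-numbered libraries deviated together within a cell type (lowest r = 0.156 over 24 pairs) but less so across cell types (lowest r = 0.0273 over 15 pairs). The smallest counts set the precision: 3 counts, the limit that a count of 0 allows, equal 0.180 to 0.340 CPM. All 10 genes, the pathway and marker lists and the rule for naming genes (up to 2 of each list by the smallest p under vehicle, and any list gene called in a treatment comparison) were chosen with earlier results of these data known. No sequence or coordinate is given, as no genome of the build used was at hand.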

Additional observations from a re-analysis of the deposited data

Results flagged for a closer look

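In 6 cases no replicate pair of epithelial cells moved, in CPM, in the same direction as any pair of stromal cells. CPM lacks the TMM correction of the fits, and the share of all genes with such signs was not counted. With glucose these were BOLA, TAP1, PSMB8, PSMB9 and NLRC5. Each was lower at 50 mM in 3 of 3 epithelial pairs and higher in 3 of 3 stromal pairs. The second stromal pair was near level for PSMB9 (13 and 12 counts) and NLRC5 (123 and 117 counts), so its sign carries little there. The difference of the effects, epithelial minus stromal, was -1.44 for BOLA (adjusted p = 0.640), -2.11 for TAP1 (adjusted p = 0.641), -1.68 for PSMB8 (adjusted p = 0.631), -1.95 for PSMB9 (adjusted p = 0.672) and -1.07 for NLRC5 (adjusted p = 0.738) by edgeR, so none passed. Without replicate 3 the difference was -0.96 for PSMB9 and -0.57 for NLRC5. With insulin, PSMB8 was lower at 10 than at 1 ng/mL in 3 of 3 epithelial pairs and higher in 3 of 3 stromal pairs, of which the second held 1 count at both doses, with a difference of -1.35 (adjusted p = 0.236), -0.81 without replicate 1, on 1 to 26 counts in each stromal library.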

How the results depend on the processing

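Each comparison was recomputed without the replicate block, with DESeq2, with RLE size factors, without the low-count filter and without each replicate, and the insulin comparisons also with all 9 libraries of a cell type. The number of the 10 genes called stayed within 1.5 times the reported count except in these cases. In epithelial cells at 50 versus 5 mM glucose it ranged from 0 to 1 when replicates were left out. For epithelial against stromal cells at 50 mM glucose it was 3 without the replicate block, against 5, and 0 to 6 without single replicates, with 0 when replicate 1 was left out. Without the low-count filter 1 gene (PSMB8) was called for the difference between cell types between 10 and 1 ng/mL insulin, against 0. In the other cell type comparisons the fit with no pairing of replicate numbers called 5 at 5 mM (4 of them shared), 8 under vehicle, 8 at 1 ng/mL and 8 at 10 ng/mL. In the treatment comparisons it called 0. Signs turned for these values, none of them called. Without the block ERAP1 was -0.079 in epithelial cells with glucose and -0.19 in its difference, and TAP2 was -0.012 in stromal cells. Without single replicates B2M ranged from -0.12 to 1.10, TAPBP from -0.26 to 0.065 and ERAP1 from -0.17 to 0.36 in epithelial cells with glucose; TAP2 from -0.050 to 0.049 in stromal cells; B2M from -1.57 to 0.46, PSMB10 from -0.45 to 0.057 and ERAP1 from -0.30 to 0.36 in the glucose difference; and PSMB10 from -0.022 to 0.11 between cell types under vehicle. The causes were not tested. Counts of 0 to 26 limit PSMB8 and PSMB9 in stromal cells of the insulin experiment, where folds against them are uncertain.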
